A study of Mus musculus with 9 samples.

Results

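The genes described here are 10 members of the bone morphogenetic protein (BMP) and activin pathways, out of 23366 gene entries for which reads were counted. Members were matched to the entries by gene name. *Bmp2*, *Bmp4* and *Bmp7* encode BMP ligands, *Inhba* encodes the subunit from which activin A is built, and *Fst* encodes follistatin, a secreted protein that binds activin. *Id1*, *Id2* and *Id3* are target genes of BMP signalling, and *Smad6* and *Smad7* encode the inhibitory SMADs. RNA from epithelial cells of C57BL/6 mice was sequenced as 9 libraries. Of these, 6 were of mSGc, a line from the submandibular salivary glands of male mice aged 12 weeks that became immortal without an added gene, and 3 were replicates of IMOK, an immortalised line of mouse oral keratinocytes. The mSGc libraries came from passages P2, P4, P10 and P25 in serum-free medium (SFM) and from P10 and P25 in serum-containing medium (SCM). In the labels the media carry the names progenitor and differentiating. The former was taken to be SFM, since the earliest passages occur only with it and the study began the line in SFM, and the latter to be SCM. According to the study's methods, both media contain epidermal growth factor, at a higher concentration in SCM, and insulin, at a lower concentration in SCM. SFM also has fibroblast growth factor, N2 supplement and dexamethasone, while SCM has low fetal bovine serum, retinoic acid, triiodothyronine, hydrocortisone, transferrin and selenite. No BMP or activin is named as a supplement of either, and whether the serum in SCM holds any is not given. For IMOK an early passage is labelled, while the study states that its passage number was that of the P10 mSGc data. The comparison over all mSGc libraries also takes in P2, P4 and P25, so one with P10 alone is given too. IMOK was grown in a medium of its own whose composition was not given in the sources used here. Line, medium and experiment therefore cannot be told apart in a comparison of mSGc with IMOK. All mSGc libraries are of 1 line, with 1 library in each condition, and nothing in the labels says that the IMOK replicates are separate cultures, so p-values measure only the spread between these libraries.

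BMP ligands bind pairs of type I and type II serine/threonine kinase receptors, which phosphorylate SMAD1, SMAD5 and SMAD9, while activin acts through its own receptors on SMAD2 and SMAD3. Both kinds of SMAD enter the nucleus with SMAD4. The *Id* genes are among the most direct targets of the BMP branch, and the ID proteins bind basic helix-loop-helix (bHLH) factors and keep them from DNA. SMAD6 and SMAD7 are induced by the signal and act back on it, and follistatin and other secreted antagonists hold ligands away from their receptors. In the developing salivary gland, BMP, activin and follistatin are known regulators of branching.

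Between the lines, *Id2*, *Id3* and *Smad6* passed the threshold of the test described below, but for *Id2* and *Smad6* this depended on single libraries. The promoters of all of these genes are shown. For each, 250 bases before the RefSeq start are given on the coding strand (GRCm38.p6). They were searched on both strands for GGCGCC and GCCGNC, GC-rich elements known to be bound by BMP-activated SMADs, and for GTCTAGAC, a palindrome bound by SMAD3 and SMAD4. GGCGCC and GCCGNC can overlap each other. Capitals mark a match, on either strand. The windows are chr12:25096093-25096342 (minus strand) for *Id2*, chr4:136143572-136143821 (plus strand) for *Id3* and chr9:64022060-64022309 (minus strand) for *Smad6*.
Id2: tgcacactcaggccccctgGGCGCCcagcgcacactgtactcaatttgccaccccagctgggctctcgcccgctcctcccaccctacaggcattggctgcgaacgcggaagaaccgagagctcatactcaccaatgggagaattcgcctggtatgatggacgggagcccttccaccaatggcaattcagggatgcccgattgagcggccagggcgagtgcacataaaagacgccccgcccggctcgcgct
Id3: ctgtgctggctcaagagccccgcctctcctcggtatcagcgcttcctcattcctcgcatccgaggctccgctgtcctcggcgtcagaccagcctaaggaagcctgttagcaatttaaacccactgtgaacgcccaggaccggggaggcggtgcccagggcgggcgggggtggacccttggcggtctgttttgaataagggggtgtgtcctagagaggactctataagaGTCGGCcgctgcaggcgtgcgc
Smad6: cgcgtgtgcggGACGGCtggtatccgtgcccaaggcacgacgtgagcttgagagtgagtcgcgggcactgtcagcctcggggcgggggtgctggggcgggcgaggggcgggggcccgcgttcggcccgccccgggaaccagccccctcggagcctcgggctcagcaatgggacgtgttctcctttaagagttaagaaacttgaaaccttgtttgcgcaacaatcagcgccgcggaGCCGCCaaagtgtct
*Id2* has 1 GGCGCC, a sequence that 9.59% of 32851 promoter windows of this length hold. *Id3* has 1 GCCGNC and *Smad6* has 2, where 27.4% of windows hold at least 1. GTCTAGAC is in 0.167% of windows and in none of these. The windows of *Bmp4* and *Inhba*, the other members matched (5 of 10), hold none of these letters. The GC content of the *Id2*, *Id3* and *Smad6* windows is 62.8%, 62.8% and 66.8%, where the median of all windows is 52.4%. The shares of windows with a motif were not matched for GC content. Motif matches are a description of the sequence, and binding was not measured. *Bmp2*, *Bmp7*, *Id1*, *Smad7* and *Fst* had no entry in the promoter table.

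In the mm9 genome, to which the authors aligned the reads, *Bmp2* (chromosome 2, 133378935 to 133388621), *Bmp7* (172695189 to 172765794) and *Id1* (152562010 to 152563146) lie on chromosome 2. *Inhba* (chromosome 13, 16106308 to 16119044) and *Fst* (115242470 to 115248938) share chromosome 13. *Bmp4* is on chromosome 14 (47003196 to 47010274), *Id2* on chromosome 12 (25778664 to 25780957), *Id3* on chromosome 4 (135699737 to 135701307), *Smad6* on chromosome 9 (63800883 to 63869866) and *Smad7* on chromosome 18 (75527019 to 75555588). Values are sums over the exons of each gene, so isoforms and parts of a gene were not resolved, and reads of an overlapping gene on the other strand could not be separated where counting ignored strand.

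The libraries held 6237884 (P25 in SCM) to 18444963 (IMOK replicate 1) counted reads. At these depths 3 reads, the limit that a count of 0 allows, correspond to 0.163 to 0.481 CPM (counts scaled to the library total), a limit of counting error only. Levels are given as TPM, a measure of transcript abundance that divides by gene length and library total and so can be set side by side between genes. The epithelial markers *Epcam*, *Cdh1*, *Krt5*, *Krt14*, *Krt8*, *Krt18* and *Trp63* were present in every library, with summed levels of 13135 to 24097 TPM in mSGc and 10068 to 11719 TPM in IMOK. The 5 endothelial markers summed to at most 0.945 TPM, and the 6 blood and immune markers to 2.01 to 4.10 TPM in mSGc and 4.95 to 33.9 TPM in IMOK. Nearly all of the latter was *Cd68*, a lysosomal gene of macrophages, at 1.88 to 4.10 TPM in mSGc and 33.4, 8.74 and 4.58 TPM in IMOK replicates 1, 2 and 3, with no overlap of the lines, while *Ptprc* and *Cd3e* were at or near 0. Its part in the differences between the lines was not tested. The 12 fibroblast and mesenchymal markers summed to 8.68 to 31.6 TPM in mSGc and 34.4 to 42.8 TPM in IMOK. The libraries of IMOK replicates 2 and 3 were closest to each other (chi-square per degree of freedom 21.3), and replicate 1 stood apart from both (150 and 180), so the members' differences from IMOK are also given without it.

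The members differed widely in level. *Fst* was among the most abundant genes of every library, at 107 to 681 TPM, which placed it between the 93.5th and 99.2nd percentile of all genes. *Bmp7* lay between 11.01 and 119 TPM, and *Inhba* between 1.61 and 56.8 TPM. At the other end *Bmp2* never had more than 4 reads. The *Id* genes spanned the widest ranges on the scale of log2(TPM + 1) (5.13 to 5.93), from 0.129 to 48.2 TPM for *Id1*, 0.490 to 89.96 TPM for *Id2* and 0.616 to 55.5 TPM for *Id3*.

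**Figure D1:**
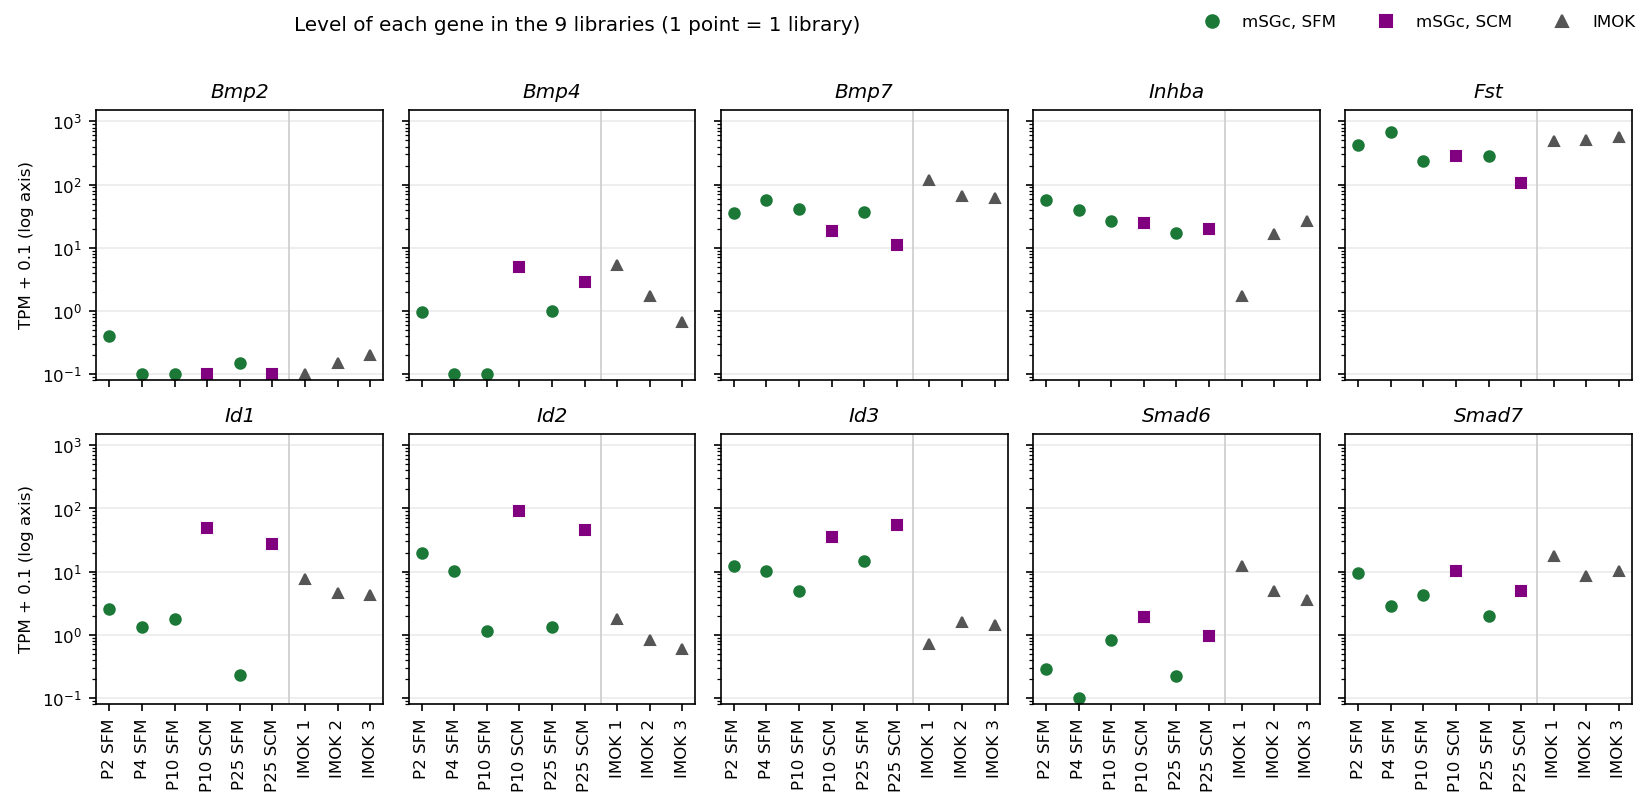
Level of each of the 10 genes in each of the 9 libraries, as TPM + 0.1 on a log axis, with 1 point per library (circles SFM and squares SCM for mSGc, triangles IMOK). *Id1*, *Id2* and *Id3* are highest in the SCM libraries, *Fst* is high in all libraries, and *Smad6* and *Bmp7* are highest in IMOK.

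The 3 BMP target genes of the *Id* family were highest in mSGc grown in SCM. *Id1* was at 2.49, 1.22, 1.67 and 0.129 TPM in the SFM libraries (P2, P4, P10 and P25), at 48.2 (P10) and 26.9 (P25) TPM in the SCM libraries, and at 7.47, 4.46 and 4.11 TPM in IMOK replicates 1, 2 and 3. Both SCM libraries thus lay above all others and the SFM libraries below IMOK. *Id2* was at 19.5, 9.98, 1.03 and 1.20 TPM in SFM, at 89.96 and 45.6 TPM in SCM, and at 1.66, 0.729 and 0.490 TPM in IMOK. In SFM the earlier passages P2 and P4 were the high ones, and P10 and P25 overlapped with IMOK. *Id3* was at 12.3, 10.05, 4.79 and 14.6 TPM in SFM, at 34.7 and 55.5 TPM in SCM, and at 0.616, 1.46 and 1.31 TPM in IMOK. For *Id3* every mSGc library was above every IMOK library, and both SCM libraries were above every SFM library. In these bulk libraries, fewer cells that express a gene and less of its RNA per cell cannot be told apart.

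Between media at the same passage, each pair is of 1 library each, so intervals cover counting error only and there is no replicate check. At P10 *Id1* was 25.9-fold higher in SCM (95% interval 12.4 to 64.9, 278 against 7 reads), and at P25 183-fold (32.0 to 7338), where SFM had 1 read against 77. *Id2* was 78.6-fold higher at P10 (35.9 to 215) and 33.3-fold at P25 (19.0 to 63.8). *Id3*, which kept a higher level in SFM, was 6.48-fold higher at P10 (4.13 to 10.7) and 3.35-fold at P25 (2.63 to 4.28). The order of the ratios at P10 was therefore *Id2*, *Id1* and *Id3*, and the intervals of *Id2* and *Id1* overlapped. Of the 9 members with enough counts to test, 6 were at least 2-fold higher in SCM at both passages, namely the 3 *Id* genes, *Smad6*, *Smad7* and *Bmp4*, where 2.86% of all 12451 genes were. *Bmp7* alone was at least 2-fold lower at both, where 2.61% of all genes were. The members were chosen with earlier results of these data known, so these counts are not an independent test. *Bmp4* had 60 against 0 reads at P10 and 17 against 15 at P25, and *Smad6* had 8 against 3 at P25.

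**Figure D2:**
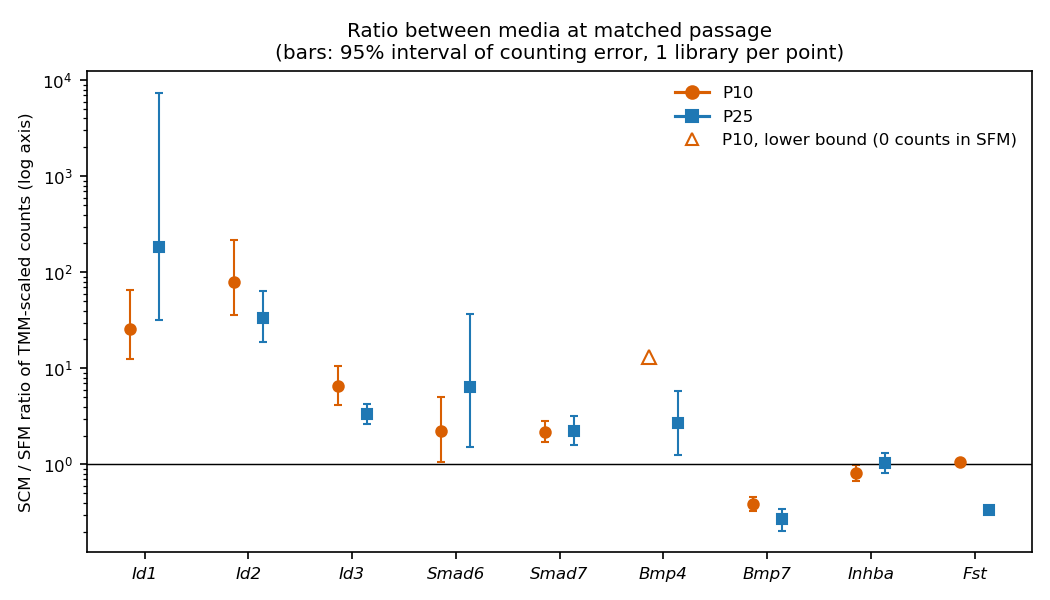
Ratio of TMM-scaled counts in SCM to those in SFM at P10 (circles) and P25 (squares) for 9 genes, on a log axis with a line at 1. Bars are 95% intervals of counting error between 2 single libraries, and the open triangle is a lower bound for *Bmp4*, which had 0 reads at P10 in SFM. *Id1* and *Id2* have the highest ratios, *Bmp7* lies under 1 at both passages, and *Fst* lies near 1 at P10 and at 0.336 at P25.

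In the joint fit of medium and passage over the 6 mSGc libraries, 0 of 9 members were called between media in either direction at an adjusted p under 0.05 by edgeR's quasi-likelihood test, which called 0.0241% of all genes higher in SCM and 0% lower. At an unadjusted p under 0.05 there were 5 members of 9, where 8.18% of all genes were. DESeq2 called 3 (*Id1* and *Id2* higher, *Bmp7* lower), where it called 2.18% of all genes, and limma's voom called 0. The log2 difference of *Id1* (SCM minus SFM) was 5.77 (SE 0.70, adjusted p = 0.0663 by edgeR). That of *Id2* was 5.09 (SE 0.62, adjusted p = 0.0663 by edgeR), and that of *Id3* was 1.79 (SE 0.58, adjusted p = 0.427). With P10 and P25 alone and passage as a block, which compares only libraries with a partner in the other medium, *Id1* (log2 difference 5.55, adjusted p = 0.0171 by edgeR) and *Id2* (5.60, adjusted p = 0.00475) were higher in SCM. In that fit 0.754% of all genes were higher and 0.276% lower, and *Id3* had a log2 difference of 2.19 with an adjusted p of 0.0631. The 9 immediate early genes, which respond to serum and handling, summed to 635 to 762 TPM in SFM, to 971 TPM at P10 and 853 TPM at P25 in SCM, and to 408 to 754 TPM in IMOK, and their part in the *Id* values was not tested.

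Against IMOK, 2 members were higher in mSGc and 1 was lower, of 9 tested over all 6 mSGc libraries, where the same edgeR test called 6.58% of all genes higher and 8.3% lower. *Id3* was higher by a log2 difference of 4.43 (SE 0.89, adjusted p = 0.0103 by edgeR), with means of 1.13 ± 0.450 TPM (SD, n = 3) in IMOK and a range of 4.79 to 55.5 TPM in mSGc. The call of *Id3* held when each of the 9 libraries was left out in turn (adjusted p from 0.0068 to 0.0452 by edgeR) and with the SFM libraries alone (log2 difference 3.45, adjusted p = 0.0151). *Id2* was higher by a log2 difference of 4.99 (SE 1.48, adjusted p = 0.0475 by edgeR), but its libraries overlapped with IMOK. Without IMOK replicate 1 the log2 differences of *Id3*, *Id2* and *Id1* were 4.10 (adjusted p = 0.0310 by edgeR), 5.54 (adjusted p = 0.0835) and 1.70 (adjusted p = 0.535). The *Id2* call was lost when P2, P4, either SCM library or any 1 IMOK replicate was left out (adjusted p from 0.0602 to 0.163 by edgeR), with the SFM libraries alone (log2 difference 3.26, adjusted p = 0.105), without TMM factors (adjusted p = 0.0515) and with voom (adjusted p = 0.260). *Id1* had a log2 difference of 1.46 (SE 1.38, adjusted p = 0.523 by edgeR) over all mSGc libraries, and its sign depended on the medium. With the SFM libraries alone it was -1.74 (adjusted p = 0.163 by edgeR), and with the SCM libraries alone 2.96 (adjusted p = 0.0382). In TPM, *Id3* of the 9 members had no overlap with mSGc higher, and *Smad6* and *Bmp7* had no overlap with mSGc lower, where 5.22% and 17% of all genes did. In CPM with TMM factors *Id3* and *Smad6* still had no overlap, but *Bmp7* at P4 (62.3 CPM) lay above IMOK replicates 2 and 3 (59.3 and 57.6 CPM). The mesenchymal markers were also lower in mSGc as a sum, mainly through *Twist1* (0.811 to 24.97 TPM in mSGc and 17.4 to 30.0 TPM in IMOK), with 1 to 5 of the 12 at 0 in a library, and their part in these differences was not tested.

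When the P10 libraries alone (SFM and SCM) were compared with the same IMOK libraries, 0 of 9 members passed the edgeR threshold, which 2.34% of all genes passed as higher and 1.87% as lower. At an unadjusted p under 0.05 there were 5, where 24.9% of all genes were, and DESeq2 called 4, where it called 17.1% of all genes, and voom 0. *Id3* had a log2 difference of 4.20 (SE 0.94, adjusted p = 0.0659 by edgeR) and *Id2* one of 5.69 (SE 1.57, adjusted p = 0.0981). These differences were smaller without the SCM library, at 2.28 for *Id3* (adjusted p = 0.329 by edgeR) and 0.38 for *Id2* (adjusted p = 0.884). Without IMOK replicate 1, 1 of 9 members was called higher (*Id3*, log2 difference 3.87, adjusted p = 0.0411 by edgeR) and 1 lower (*Fst*, -0.96, adjusted p = 0.0242), where 14% of all genes were higher and 13.1% lower. This fit and the preceding one share the IMOK libraries and the P10 libraries.

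Across passages in SFM, *Id2* and *Id1* were lower at P25 than at P2. For *Id2* the level at P2 was 17.7-fold that at P10 (95% counting interval 7.92 to 49.1), and P25 was at 0.0767 of P2 (0.0398 to 0.136). *Id1* at P25 was at 0.0644 of its P2 level (0.00151 to 0.435), from 1 read against 12, and *Id3* at 1.47 (1.07 to 2.03). The joint fit gave *Id2* a log2 change of -1.10 per doubling of the passage number (SE 0.21, adjusted p = 0.0863 by edgeR). *Id1* had -0.67 (SE 0.27, adjusted p = 0.352 by edgeR) and *Id3* 0.14 (SE 0.19, adjusted p = 0.810). In all 0 of 9 members were called with passage, where 0.0482% of all genes rose and 0.442% fell, and 4 members had an unadjusted p under 0.05 (*Id2*, *Inhba*, *Smad7* and *Id1*), where 13.2% of all genes did. DESeq2 called *Id2* and *Inhba*, both lower at later passages, where it called 5.62% of all genes, and voom called 0.

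The makeup of the *Id* family changed between the conditions. Summed over *Id1*, *Id2* and *Id3*, the level was 34.2, 21.3, 7.49 and 15.9 TPM in SFM (P2, P4, P10 and P25), 173 and 128 TPM in SCM and 9.75, 6.65 and 5.91 TPM in IMOK. *Id1* made up 67.0% to 76.6% of this sum in IMOK but 0.812% to 27.9% in mSGc. *Id3* made up 91.6% of it at P25 in SFM, and *Id2* was the main member at P2 in SFM, with 56.8%, and at P10 in SCM, with 52.0%. *Id4*, the remaining gene of the family and not a member of the list, was more abundant than the sum of the other 3 genes in every library, at 156 to 431 TPM. Its SCM to SFM ratio was 0.682 (95% counting interval 0.649 to 0.717) at P10 and 0.975 (0.908 to 1.05) at P25, both at or under 1 where those of the other 3 genes were above, and the joint fit gave a log2 difference of -0.12 (SE 0.43, adjusted p = 0.975 by edgeR). The bHLH partners *Tcf3*, *Tcf4* and *Tcf12*, which the ID proteins bind, summed to 117 to 169 TPM in mSGc and 150 to 191 TPM in IMOK. None of the 3 was called in any of the 4 comparisons by edgeR (0 at an unadjusted p under 0.05).

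**Figure D3:**
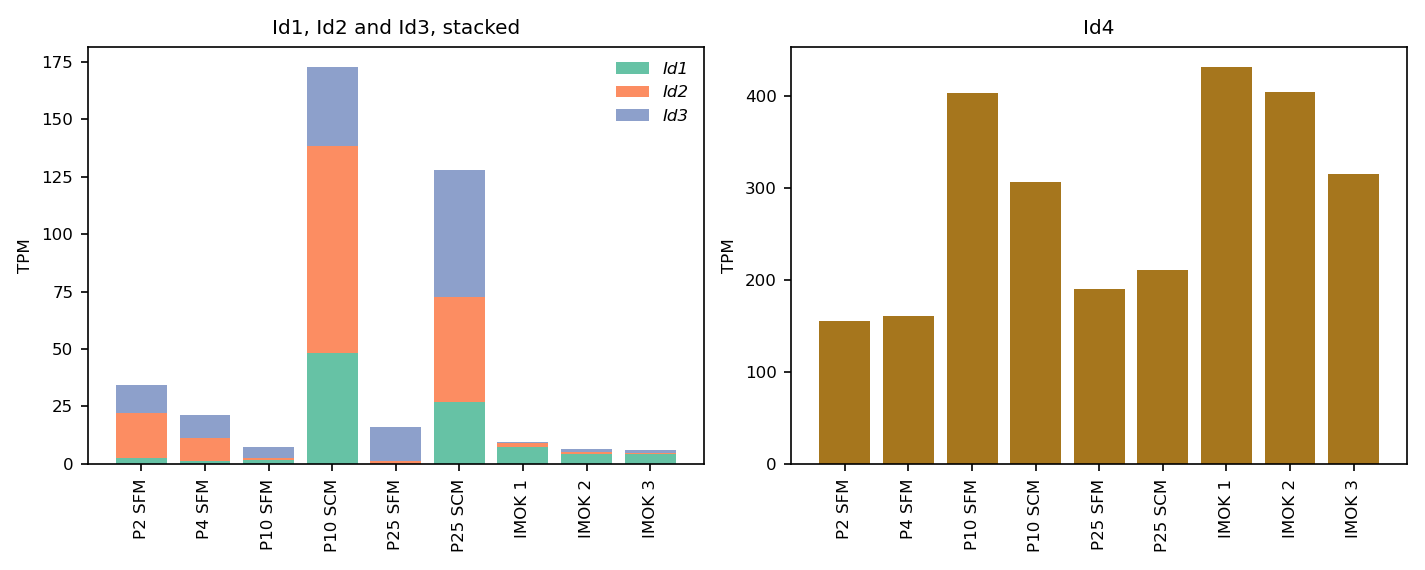
Level in TPM of *Id1*, *Id2* and *Id3* stacked (left) and of *Id4* (right) in the 9 libraries, with 1 bar per library. The sum on the left reaches 173 and 128 TPM in the SCM libraries and at most 34.2 TPM elsewhere, while *Id4* on the right is between 156 and 431 TPM in all libraries.

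Both inhibitory SMADs had their highest level in IMOK replicate 1. *Smad6*, which acts mainly on the BMP branch, was at 0.191, 0, 0.732 and 0.119 TPM in SFM, at 1.81 and 0.858 TPM in SCM, and at 12.0, 4.88 and 3.44 TPM in IMOK. All mSGc libraries were below all IMOK libraries, and the SFM libraries had 0 to 10 reads. *Smad6* was lower in mSGc by a log2 difference of -3.28 (SE 0.97, adjusted p = 0.0470 by edgeR), a call that was lost when any of P2, P10 in SFM, either P25 library or any 1 IMOK replicate was left out, and without a filter on low counts (adjusted p = 0.0509). Without IMOK replicate 1, whose *Smad6* level was 2.22-fold that of replicate 2 and 3.01-fold that of replicate 3, the log2 difference was -2.68 (adjusted p = 0.124 by edgeR). In SCM *Smad6* was 2.21-fold higher than in SFM at P10 (95% counting interval 1.07 to 5.02) and 6.35-fold at P25 (1.52 to 37.2, 8 against 3 reads), and the joint fit gave a log2 difference of 2.26 (SE 1.26, adjusted p = 0.757 by edgeR). *Smad7*, which acts on both branches, was at 9.49, 2.73, 4.16 and 1.88 TPM in SFM, at 10.2 and 4.80 TPM in SCM, and at 17.7, 8.36 and 10.2 TPM in IMOK. Its libraries overlapped between the lines and between the media. At matched passage *Smad7* was 2.19-fold higher in SCM at P10 (1.71 to 2.83) and 2.25-fold at P25 (1.59 to 3.18), with a log2 difference of 1.34 in the joint fit (SE 0.44, adjusted p = 0.444 by edgeR). In SFM it was at 0.246 of its P2 level at P25 (0.186 to 0.323). Against IMOK the log2 difference of *Smad7* was -0.94 (SE 0.45, adjusted p = 0.187 by edgeR), and -0.65 without IMOK replicate 1 (adjusted p = 0.419). The ratio of *Smad7* to *Smad6* in TPM was 1.47 to 2.95 in IMOK and 5.60 to 49.7 in the 5 mSGc libraries in which *Smad6* had reads.

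Among the BMP ligands, *Bmp7*, which signals through the BMP type I receptors and ACVR1, held 79.2% to 100% of the summed level of the 3 ligand genes in every library. It was at 35.5, 57.2, 41.6 and 36.3 TPM in SFM, at 18.1 and 11.01 TPM in SCM, and at 119, 65.9 and 61.2 TPM in IMOK. In TPM the 3 groups did not overlap, with SCM lowest and IMOK highest, but in CPM with TMM factors SFM and IMOK overlapped through P4. *Bmp7* in SCM was at 0.390 of the SFM level at P10 (95% counting interval 0.329 to 0.461) and at 0.267 at P25 (0.205 to 0.344). The joint fit gave a log2 difference of -1.62 (SE 0.36, adjusted p = 0.210 by edgeR), and the block of passage -1.60 (adjusted p = 0.0538). Against IMOK the log2 difference was -1.03 (SE 0.45, adjusted p = 0.152 by edgeR) over all mSGc libraries, -0.74 without IMOK replicate 1 (adjusted p = 0.356) and -2.33 (adjusted p = 0.0397) with the SCM libraries alone. With passage it was -0.05 per doubling (SE 0.13, adjusted p = 0.908 by edgeR).

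*Bmp4* was low in all libraries, at 0.853, 0, 0 and 0.885 TPM in SFM, at 4.76 and 2.72 TPM in SCM, and at 5.18, 1.63 and 0.563 TPM in IMOK. Both SCM libraries were above the SFM libraries. The IMOK libraries overlapped with those of both media and lay above the 2 SFM libraries with 0 reads. At P10 *Bmp4* was at least 13.0-fold higher in SCM, with 60 reads against 0 and a floor of 3 reads, and at P25 it was 2.70-fold higher (95% counting interval 1.27 to 5.81, 17 against 15 reads). In the joint fit the log2 difference was 2.83 (SE 1.34, adjusted p = 0.678 by edgeR), and against IMOK -0.47 (SE 1.25, adjusted p = 0.839). Without P25 in SFM, which leaves 2 SFM libraries with 0 reads and 1 with 9, the difference between media was 7.71 (adjusted p = 0.577 by edgeR), a value that depends on the prior count. The direction of *Bmp4* against IMOK turned without IMOK replicate 1, to 0.57 (adjusted p = 0.831 by edgeR). The level of *Bmp2*, at 0 to 0.301 TPM, was too low for a test, with 0 to 4 reads in a library. *Bmp7* and *Bmp4* thus moved in opposite directions between the media, in single libraries at each passage.

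The activin subunit gene *Inhba* was at 56.8, 39.3, 26.6 and 16.8 TPM in SFM, at 24.3 and 19.8 TPM in SCM, and at 1.61, 16.2 and 26.2 TPM in IMOK. In SFM the level at P25 was 0.366 of that at P2 (95% counting interval 0.310 to 0.431). Per doubling of the passage number the log2 change was -0.39 (SE 0.09, adjusted p = 0.139 by edgeR). Between media *Inhba* in SCM was at 0.818 (0.673 to 0.997) of the SFM level at P10 and at 1.04 (0.807 to 1.33) of it at P25, with a log2 difference of -0.15 in the joint fit (SE 0.27, adjusted p = 0.934 by edgeR). As a fold, the spread of *Inhba* within IMOK was wider than that within mSGc. Replicate 3 had 18.8-fold the *Inhba* level of replicate 1 (12.1 to 30.8), while the log2 difference of the lines was 1.20 (SE 0.70, adjusted p = 0.278 by edgeR), and 0.66 without replicate 1 (adjusted p = 0.347).

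*Fst* was at 427, 681, 237 and 279 TPM in SFM, at 281 and 107 TPM in SCM, and at 486, 503 and 571 TPM in IMOK. Only P4 exceeded the IMOK libraries, and P25 in SCM was the lowest. Over all mSGc libraries the log2 difference of *Fst* from IMOK was -0.41 (SE 0.46, adjusted p = 0.600 by edgeR), and -0.51 without IMOK replicate 1 (adjusted p = 0.551). With the P10 libraries alone it was -0.85 (SE 0.25, adjusted p = 0.113 by edgeR, and called lower by DESeq2). Between media the ratio of SCM to SFM was 1.06 (95% counting interval 1.01 to 1.12) at P10 and 0.336 (0.311 to 0.362) at P25, and the joint fit gave a log2 difference of -0.85 (SE 0.48, adjusted p = 0.758 by edgeR). In TPM, *Fst* exceeded *Inhba* in every library, by 5.39-fold to 17.3-fold in mSGc and by 301-fold, 31.0-fold and 21.8-fold in IMOK replicates 1, 2 and 3. RNA levels do not give the amount of either secreted protein.

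**Figure D4:**
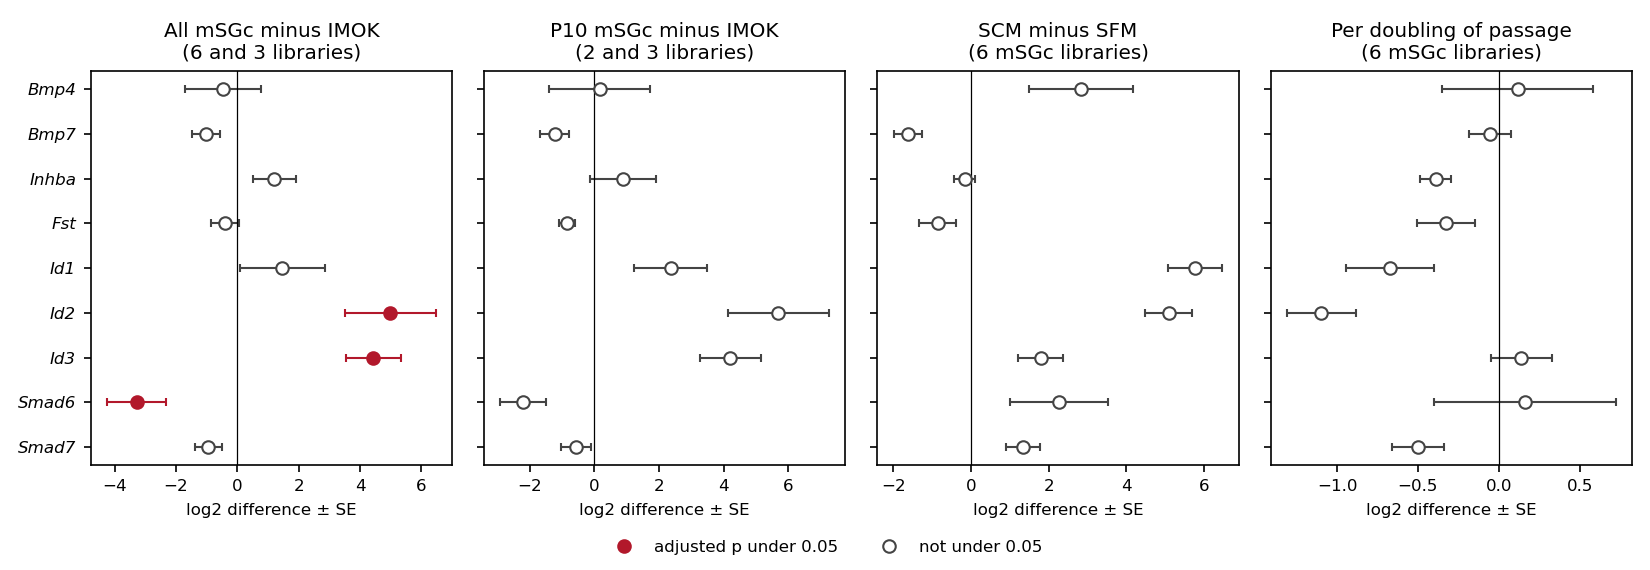
Log2 difference with its standard error from edgeR's quasi-likelihood fits for 9 genes (*Bmp2* had too few counts), in 4 comparisons with separate scales. Filled red points mark an adjusted p under 0.05, which holds for *Id2*, *Id3* and *Smad6* in the comparison of all mSGc with IMOK and for no gene in the others.

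A further 73 genes of the BMP, activin and transforming growth factor beta (TGF-beta) pathways were listed by role. Of these, 58 had enough counts for the test against IMOK, of which 4 were higher in mSGc and 2 lower by edgeR, beside the 6.58% and 8.3% of all genes given above. At an unadjusted p under 0.05 there were 6 higher and 9 lower, where 30.4% of all genes passed in either direction. In the P10 libraries 1 was higher and 1 lower of 58, beside 2.34% and 1.87% of all genes. Between media 0 of 57 were called, beside 0.0241% of all genes higher and 0% lower (6 at an unadjusted p under 0.05). With passage 0 rose and 2 fell, beside 0.0482% and 0.442% of all genes. For the lists below, the share of all genes at an unadjusted p under 0.05 was 30.4% against IMOK and 24.9% at P10. It was 8.18% between media and 13.2% with passage. When each of the 9 libraries was left out of the comparison with IMOK, *Bmpr1b* and *Msx2* were called in all 9 fits. *Smurf1* and *Tob1* were not called without IMOK replicate 3, nor *Acvrl1* without IMOK replicate 2 or 3, nor *Bmpr1a* without any 1 of the IMOK replicates. The median log2 difference of all those tested was -0.16 against IMOK and 0.07 between media, beside 0.0023 and -0.014 for all genes tested.

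Of the 12 other ligand genes only 6 could be tested against IMOK, and 0 were called (1 at an unadjusted p under 0.05). *Inhbb*, which encodes the subunit of activin B, was the most abundant, at 11.5 to 48.1 TPM in mSGc and 35.0 to 73.9 TPM in IMOK. *Bmp5* and *Nodal* were at or near 0 in all libraries, and these were chosen with their values known.

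Of the 12 receptor and co-receptor genes 11 were tested against IMOK, with 2 higher and 1 lower in mSGc, beside 6.58% and 8.3% of all genes. *Bmpr1b*, a BMP type I receptor, was at 0.176 to 1.69 TPM in mSGc and at 11.2, 10.5 and 10.8 TPM in IMOK. It was lower by a log2 difference of -3.91 (SE 0.62, adjusted p = 0.00343 by edgeR), and by -4.46 in the P10 libraries (SE 0.50, adjusted p = 0.0169), where the call held only without IMOK replicate 1 among the 5 fits that left out 1 library. *Bmpr1a*, the other BMP type I receptor of this pair, was at 41.4 to 79.3 TPM in mSGc and 38.9 to 41.9 TPM in IMOK, a log2 difference of 0.77 (SE 0.20, adjusted p = 0.0303 by edgeR). *Acvrl1*, a type I receptor best known from endothelium, was at 0.527 to 9.90 TPM in mSGc and 0.103 to 0.615 TPM in IMOK, with a log2 difference of 4.13 (SE 0.91, adjusted p = 0.0155 by edgeR). The P25 library in SCM, which overlapped with IMOK for *Acvrl1*, had 0 for all 5 endothelial markers, and P2, the highest, had 0.945 TPM in their sum. P10 in SFM, the next highest for *Acvrl1*, had a sum of 0.152 TPM, and the IMOK libraries had 0.364 to 0.657 TPM. The part of endothelial cells in the *Acvrl1* values was not tested. Between media and with passage 0 of 11 receptor genes were called (0 and 1 at an unadjusted p under 0.05).

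The 5 SMAD transducers with enough counts for a test were present in both lines. Of these, 0 were called in any of the 4 comparisons (2, 1, 0 and 0 at an unadjusted p under 0.05 for all mSGc and P10 mSGc against IMOK, medium and passage). *Smad4*, the partner of both branches, was the most abundant at 34.1 to 62.2 TPM in mSGc and 47.4 to 61.7 TPM in IMOK. *Smad1* and *Smad5*, which carry the BMP signal, were at 30.9 to 58.9 and 20.8 to 35.0 TPM in mSGc and at 24.99 to 42.5 and 36.0 to 39.4 TPM in IMOK. *Smad9* was at 0 to 0.17 TPM and was not tested. These 3 were named for their role, after their values were seen.

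**Figure D5:**
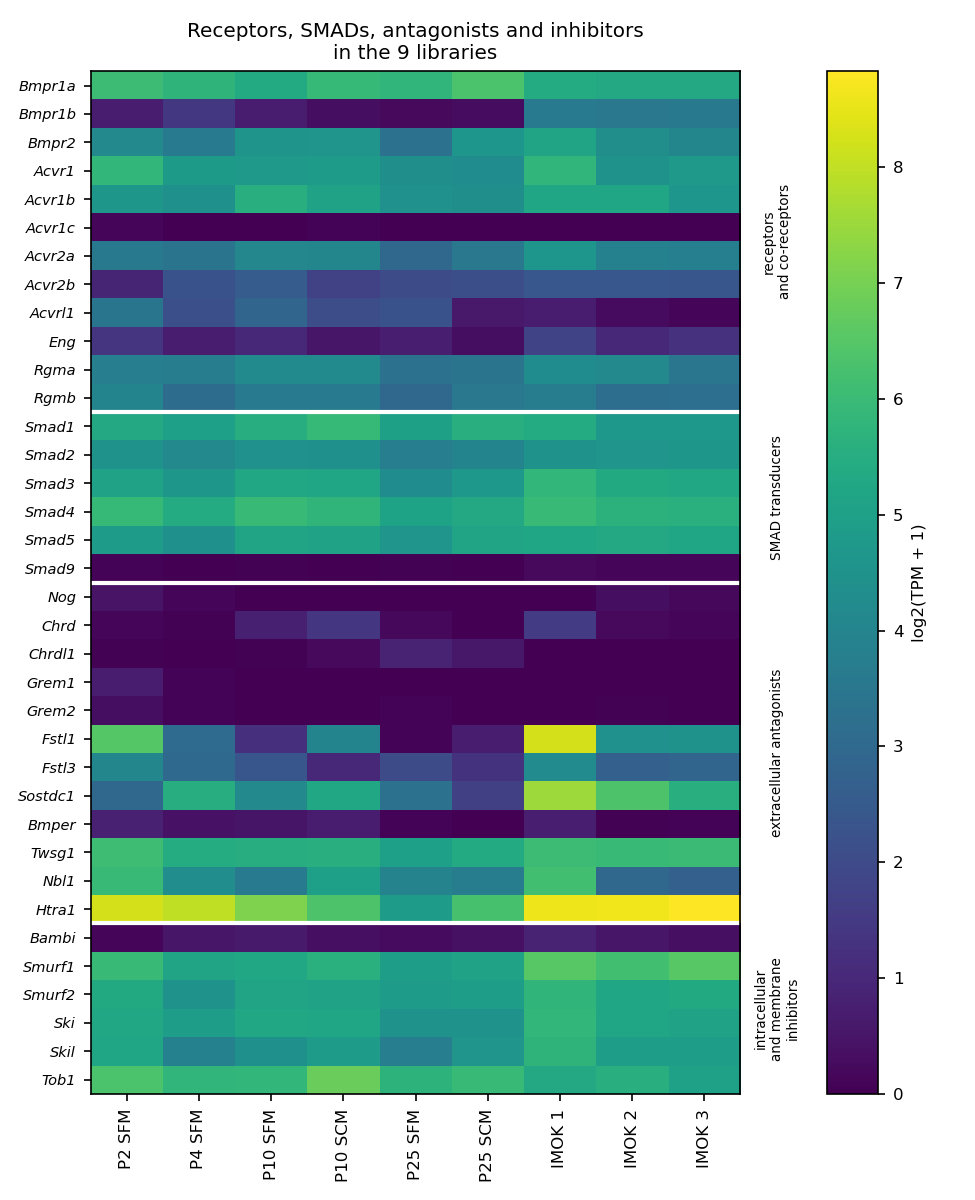
Level as log2(TPM + 1), on a color scale, of 36 genes for receptors, SMAD transducers, extracellular antagonists and inhibitors (rows) in the 9 libraries (columns). *Bmpr1b* is brighter in IMOK, *Fstl1* darkens from P2 to P25 in SFM, and *Smad1*, *Smad4* and *Smad5* stay between 20.8 and 62.2 TPM in all libraries.

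Of 9 extracellular antagonists tested with passage, 1 fell and 0 rose by edgeR, beside 0.442% and 0.0482% of all genes. At an unadjusted p under 0.05 there were 5 lower and 1 higher, where 13.2% of all genes passed in either direction. *Fstl1*, a follistatin-like secreted protein, was at 89.1, 7.59, 1.33 and 0.0652 TPM in SFM, at 14.6 and 0.618 TPM in SCM, and at 306, 21.1 and 21.7 TPM in IMOK. It fell by 2.73 on the log2 scale per doubling of the passage number (SE 0.17, adjusted p = 0.00700 by edgeR), a call that was lost without P2 or without P25 in SFM. *Fstl1* was higher in SCM by 9.89-fold at P10 (95% counting interval 6.42 to 15.99), with a log2 difference of 3.57 in the joint fit (SE 0.43, adjusted p = 0.0663 by edgeR). The mesenchymal genes *Col1a1* and *Col1a2*, which are at 6.68 and 9.88 TPM at P2, were at most 0.620 TPM in the other mSGc libraries, and their part in the change of *Fstl1* was not tested. Against IMOK 0 of 8 antagonists were called (2 at an unadjusted p under 0.05), among them *Htra1*, the most abundant, a secreted protease known to bind TGF-beta family ligands, at 27.6 to 308 TPM in mSGc and 383 to 453 TPM in IMOK.

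Among 6 inhibitors of the membrane and cytoplasm, *Tob1*, an antiproliferative protein known to restrain BMP SMADs, was higher in mSGc (51.2 to 110 TPM against 31.9 to 45.8 TPM in IMOK), with a log2 difference of 1.02 (SE 0.22, adjusted p = 0.0148 by edgeR). *Smurf1*, a ubiquitin ligase for SMAD1 and SMAD5, was lower (29.9 to 61.1 TPM against 71.0 to 91.1 TPM), with a log2 difference of -0.86 (SE 0.19, adjusted p = 0.0164 by edgeR). Between media and with passage 0 of the 6 were called (0 and 1 at an unadjusted p under 0.05).

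Of the 9 other BMP target genes 6 were tested against IMOK, and 1 was called higher, beside 6.58% of all genes. *Msx2*, a homeobox gene, was at 9.09 to 25.5 TPM in mSGc (66 to 428 reads) and had 1 to 2 reads in each IMOK library (adjusted p = 8.39e-05 by edgeR over all mSGc, and 0.00621 over the P10 libraries, where the call was lost without either P10 library). The SCM to SFM ratio of *Msx2* was 0.980 (95% counting interval 0.827 to 1.16) at P10 and 0.367 (0.279 to 0.477) at P25. Between media 0 of the 6 were called (1 at an unadjusted p under 0.05, *Hey1*, a Notch and BMP target with a log2 difference of 3.50 and an adjusted p of 0.271 by edgeR, named after its values were seen).

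Of the 7 target genes of activin and TGF-beta, 1 fell with passage, beside 0.442% of all genes. *Ctgf*, which encodes a matrix-associated growth regulator, was at 1931, 740, 96.3 and 37.8 TPM in SFM and at 1157 and 78.2 TPM in SCM, a log2 change of -1.68 per doubling of the passage number (SE 0.21, adjusted p = 0.0382 by edgeR). The *Ctgf* call was lost without P2, P4 or P25 in SFM. Against IMOK and between media 0 of the 7 were called (1 and 1 at an unadjusted p under 0.05). The 6 TGF-beta ligands and receptors had 0 calls in the 4 comparisons (1, 1, 2 and 5 at an unadjusted p under 0.05, in the same order as for the SMADs), and *Tgfbr2*, the type II receptor and the most abundant, was at 47.7 to 130 TPM in mSGc and 73.6 to 85.3 TPM in IMOK. The ligand gene *Tgfb3* came closest, with adjusted p = 0.0957 between media and 0.0533 with passage by edgeR. *Tgfb3* was chosen with its values known.

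The genes whose profile over the 9 libraries was most like that of a member were found by the root mean square difference of log2(TPM + 1), after each gene was centred at its mean, among 9659 genes. *Id1* was closest to *Elf3* (0.76) and *Epas1* (0.88), *Id2* to *Gabrp* (0.63) and *Krt4* (0.85), and *Id3* to *Plekhs1* (0.43) and *B3gnt3* (0.59). *Bmp7* was closest to *Col7a1* (0.29) and *Egfl7* (0.36), *Bmp4* to *Abca3* (0.41) and *Ltbp3* (0.42), and *Fst* to *Sh3kbp1* (0.30) and *Syt8* (0.36). For *Smad6* it was *Il1r1* (0.35) and *A930005H10Rik* (0.37), for *Smad7* *Trp53bp2* (0.27) and *Magi3* (0.28), and for *Inhba* *Tmem47* (0.49) and *Pvrl3* (0.51). No member was among the 2 closest genes of another member. *Bmp2*, *Bmp4* and *Smad6* could not be, since only genes with at least 10 TPM in at least 2 libraries were candidates. Such likeness over 9 libraries of 2 lines is a description of these libraries, which share line, medium and depth among all their genes.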

How the data were processed

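RNA-seq libraries of mSGc (6) and IMOK (3) were analysed. The authors aligned reads to mm9, and the deposited values are raw counts of reads per gene, without normalization, in featureCounts layout. The submitters' processing notes name TopHat2 2.1.1, Bowtie2 2.2.6, featureCounts 1.5.1 and DESeq2 1.12.4. The annotation, strand setting and treatment of reads with several matches are not given in the sources used here. TPM was derived from these counts with the deposited gene lengths.

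Counts were tested with edgeR 4.0.16 in R 4.3.3 (TMM factors, default filterByExpr, quasi-likelihood F test, Benjamini-Hochberg adjustment over all genes, threshold 0.05). The SE is the absolute log2 difference divided by the square root of F. Fits were of line over 9 libraries (12885 genes), of line with P10 mSGc only (13018 genes), and of medium and log2 passage jointly within mSGc (12451 genes, 3 residual degrees of freedom). Ratios of single libraries have exact conditional intervals from counts scaled by TMM, with a floor of 3 counts per library. Alternatives were DESeq2 1.42.0, voom of limma 3.58.1, no TMM factors, no filter, each library left out, other codings and subsets of passage and medium, and 3 added after seeing the data (SFM mSGc only, SCM mSGc only, and P2 with IMOK replicate 1 left out). Fits were also run on simulated counts with large added changes, which do not show how often smaller differences would be found.

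The members and lists were chosen with earlier results of these data known. Besides the members, up to 3 genes per list and comparison with the smallest adjusted p under 0.05 are named, or the most abundant gene of a list without a call, and the 2 genes most like each member that spans at least 2 in log2(TPM + 1), among genes with at least 10 TPM in at least 2 libraries. Promoter windows come from RefSeq on GRCm38.p6. Python 3.11.15, pandas 2.3.3, scipy 1.17.1 and matplotlib 3.10.9 were used.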

Additional observations from a re-analysis of the deposited data

Results flagged for a closer look

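*Bmp2* at P2 in SFM was at 0.301 TPM, which stood apart from the other 5 mSGc libraries (gap over range 0.844, above Dixon's critical value of 0.625 for 6 values). It rests on 4 reads, and the 6 libraries differ in passage and medium. Among the 10 members this was 1 flag. The rate of about 1 chance flag in 20 groups assumes normally spread replicates. It does not apply to low counts with several libraries at 0.

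For *Fst* the ratio of SCM to SFM was 1.06 at P10 and 0.336 at P25, and the ratio of P25 to P10 was 1.37 in SFM and 0.431 in SCM. The direction of each contrast thus turned between the conditions, in single libraries, and the difference was not tested.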

How the results depend on the processing

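Against IMOK (3 members called), 1 was called without P2 and IMOK replicate 1 together (*Id3*, log2 difference 4.23), and 1 to 2 when single libraries were left out. For P10 against IMOK (0 called) DESeq2 called 4, and fits without 1 library called 0 to 2. Between media (0 called) DESeq2 called 3, the fit without a filter 2, P10 and P25 with passage as a block 2, and fits without 1 library 0 to 2. With passage (0 called) DESeq2 called 2, and fits without 1 library 0 to 1. The sign of *Id1* against IMOK turned with voom (-0.62) and with SFM libraries alone (-1.74). That of *Bmp4* turned with SCM libraries alone (0.79), without P2 and IMOK replicate 1 (0.70) and, at P10, with voom (-1.36). That of *Smad6* with passage turned with an untransformed passage number (-0.018) and with P10 and P25 alone and medium as a block (-1.14). Leaving out single libraries turned the sign within these ranges of log2 differences, none of them called: *Bmp4* against IMOK from -1.22 to 0.57, at P10 from -8.07 to 1.19 and with passage from -1.58 to 1.42, *Id1* at P10 from -1.40 to 3.27, *Inhba* between media from -0.34 to 0.091, and with passage *Bmp7* from -0.26 to 0.029, *Smad6* from -0.094 to 0.61 and *Id3* from -0.22 to 0.30. The value of -8.07 has 0 reads of *Bmp4* at P10 in SFM and depends on the prior count. Where a single library remained in a group, it was assumed to vary like the other groups. The cause was not tested.

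Over all genes the number called was 1918 against IMOK, 2900 with DESeq2 and 738 without IMOK replicate 2. At P10 it was 547, and 2231 with DESeq2. Between media it was 3, with 271 by DESeq2, 36 without a filter and 123 with the block. With passage it was 61, with 700 by DESeq2, 126 with the untransformed number, 161 without a filter and 915 with medium as a block. By TMM-scaled CPM the order of libraries was that of TPM for 5 members and differed for *Bmp4*, *Bmp7*, *Id2*, *Smad7* and *Fst*. Depth limits *Bmp2*, *Bmp4*, *Smad6* and *Id1* in SFM, with few or 0 reads in some libraries. Pairing by replicate number could not be made, since each mSGc condition has 1 library. Libraries of the same passage were paired in the fit with passage as a block.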
